A study of Mus musculus with 6 samples.

Results

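The endoplasmic reticulum (ER) folding and secretory pathway genes described here are 46 mouse genes chosen by name for their roles in protein import into the ER, folding there and export in COPII vesicles. They are 46 of the 22824 rows that each library lists, and all 46 had a row. Of these, 45 had a row of their own, while Mia3 was split over 2 rows with numbered identifiers and is described apart. All 45 passed the expression filter of at least 1 FPKM in at least 3 libraries, as did 12177 rows in all. The members were contrasted by whether they followed bone matrix genes across the libraries.

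Each library was made from femurs of C57BL/6 mice, described by the labels as freed of cartilage and marrow. The OE group (3 libraries) came from homozygous 9.6kb DMP1-Cre; R26-Wnt7b mice. There Cre, under Dmp1 regulatory sequence active in osteocytes and mature osteoblasts, switches on a Wnt7b allele at the R26 locus. The Ctrl group (3 libraries) came from littermates that carry R26-Wnt7b and no Cre, so the allele is shared by both groups. The sources used here do not state ages, nor whether each library is a separate animal, so p-values measure the spread of these samples, part of which may be technical. Paired-end RNA sequencing was deposited as FPKM, fragments scaled to transcript length and to the number of mapped fragments. Absolute depth is unknown, and from the spacing of low values the libraries differ in depth by a factor of 1 to 1.18.

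Proteins bound for secretion enter the ER through the Sec61 channel, lose their signal peptide, and are folded by chaperones such as BiP and by disulfide isomerases. Correctly folded cargo leaves in vesicles coated by COPII, and escaped ER residents are brought back by KDEL receptors. Osteoblasts put large amounts of procollagen and other matrix proteins through this route, and developing neutrophils and plasma cells also secrete or store much protein. When unfolded protein builds up, the sensors Ire1, Atf6 and Perk start the unfolded protein response, which raises the transcription of chaperone genes through ER stress response elements (ERSE, ERSE-II) and the unfolded protein response element (UPRE).

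The promoters of members were searched for these elements, and 5 are shown to set 2 chaperone genes beside Kdelr3, its relative Kdelr1 and Sec23a. Of the 46 members, 37 had a promoter window in the RefSeq table (GRCm38.p6, the assembly that mm10 names), from 250 bases before to 50 bases after the start of the gene. Both strands were searched for CCAAT and CCACG with 9 bases between them (ERSE), ATTGG and CCACG with 1 base between them (ERSE-II) and TGACGTGG (the UPRE core), whose opposite strand begins with the CCACG of both ERSE forms. Capitals in these sequences mark a match to any of the 3 motifs, on either strand, and every sequence runs 5′ to 3′ along the strand of its gene.
Hspa5, chr2:34771840-34772139, plus strand: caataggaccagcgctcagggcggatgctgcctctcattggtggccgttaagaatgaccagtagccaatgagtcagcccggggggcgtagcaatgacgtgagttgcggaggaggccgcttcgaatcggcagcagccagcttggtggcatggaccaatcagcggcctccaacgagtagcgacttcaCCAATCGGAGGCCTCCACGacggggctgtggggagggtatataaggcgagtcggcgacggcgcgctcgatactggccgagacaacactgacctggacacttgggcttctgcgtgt
Hsp90b1, chr10:86705395-86705694, minus strand: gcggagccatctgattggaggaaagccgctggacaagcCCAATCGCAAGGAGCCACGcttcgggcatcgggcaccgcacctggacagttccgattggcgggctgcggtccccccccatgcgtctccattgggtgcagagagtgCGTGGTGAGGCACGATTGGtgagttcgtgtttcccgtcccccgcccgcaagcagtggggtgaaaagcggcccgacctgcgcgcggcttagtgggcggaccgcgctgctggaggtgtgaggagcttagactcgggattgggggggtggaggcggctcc
Kdelr3, chr15:79516158-79516457, plus strand: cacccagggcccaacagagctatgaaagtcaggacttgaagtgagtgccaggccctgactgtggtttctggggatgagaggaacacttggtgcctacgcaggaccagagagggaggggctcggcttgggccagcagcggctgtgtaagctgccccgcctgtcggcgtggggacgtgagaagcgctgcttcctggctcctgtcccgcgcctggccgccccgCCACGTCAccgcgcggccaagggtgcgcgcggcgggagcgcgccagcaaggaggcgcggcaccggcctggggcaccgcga
Kdelr1, chr7:45872590-45872889, plus strand, with no match: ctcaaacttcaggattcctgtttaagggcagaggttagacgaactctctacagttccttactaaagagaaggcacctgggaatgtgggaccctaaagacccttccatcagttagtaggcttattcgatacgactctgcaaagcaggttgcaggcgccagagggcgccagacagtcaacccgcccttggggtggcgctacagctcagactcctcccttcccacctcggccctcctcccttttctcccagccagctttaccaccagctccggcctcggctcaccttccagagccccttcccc
Sec23a, chr12:59011968-59012267, minus strand: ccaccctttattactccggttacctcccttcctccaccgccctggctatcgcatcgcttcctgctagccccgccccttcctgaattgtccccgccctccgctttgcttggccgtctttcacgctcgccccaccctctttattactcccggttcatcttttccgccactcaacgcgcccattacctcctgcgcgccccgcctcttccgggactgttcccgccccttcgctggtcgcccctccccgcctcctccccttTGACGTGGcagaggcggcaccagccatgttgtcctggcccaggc

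The ERSE was found in 7 members, Hspa5, Hsp90b1, Calr, Canx, Creld2, Dnajc3 and Pdia6, and in 0.119% of all 32851 promoter windows. The ERSE-II was found in 1 member, Dnajb11, and in 0.0365% of all windows. The UPRE core was found in 2 members, Kdelr3 and Sec23a, and in 0.676% of all windows. A match is a description of letters and not of a bound site, and its absence says only that the letters are not in this window. The following windows show the ERSE of the remaining members, with the motif in capitals, on the strand of the gene or on the opposite one.
Calr, chr8:84847069-84847099, minus strand: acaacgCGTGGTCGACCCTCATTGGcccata
Canx, chr11:50325794-50325824, minus strand: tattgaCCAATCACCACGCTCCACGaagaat
Pdia6, chr12:17266485-17266515, plus strand: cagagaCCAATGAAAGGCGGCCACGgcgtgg
Dnajc3, chr14:118937821-118937851, plus strand: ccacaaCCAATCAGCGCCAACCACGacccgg
Creld2, chr15:88819514-88819544, plus strand: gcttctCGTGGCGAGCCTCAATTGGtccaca

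Values of the OE libraries are given in the order OE 1, OE 2 and OE 3. Wnt7b, which the OE allele encodes, stood at 2.49, 0.661 and 0.295 FPKM in the OE libraries, against 0.909 in the library labelled Ctrl 1 and 0.00833 in Ctrl 2, and was listed at 0 in Ctrl 3. The value in the library labelled Ctrl 1 was inside the range of OE, unlike those of Ctrl 2 and Ctrl 3. FPKM per gene does not tell the R26 allele from the endogenous gene. A wrong label and endogenous Wnt7b in that library therefore cannot be told apart. Comparisons of OE and Ctrl keep that library with Ctrl unless stated otherwise. The libraries also differed in tissue. The bone matrix list holds 18 genes for secreted bone proteins and the enzymes that mineralize them. The type I collagen genes Col1a1 and Col1a2 are not on it. The level of the list was 7.76, 7.13 and 6.73 in OE 1, OE 2 and OE 3 as a mean of log2(FPKM + 1). It was 7.22 in the library labelled Ctrl 1, with 4.15 and 4.21 for Ctrl 2 and Ctrl 3. Marrow genes were present although the labels describe femurs freed of marrow. Neutrophil precursor genes took 10.4% to 22.2% of all FPKM and were lowest in OE 3, where erythroid genes took 7.74%, against 0.245% to 1.36% in the other libraries. Cartilage genes were present despite the labels, at a summed 314 to 641 FPKM in the OE libraries, against 473 in the library labelled Ctrl 1, with 25.5 and 31.7 for Ctrl 2 and Ctrl 3. In bulk RNA, fewer cells of a type and less RNA per cell cannot be told apart.

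The summed ER genes varied far less over the libraries than the bone matrix genes. The 45 members summed to 4426, 5331 and 3302 FPKM in the OE libraries, against 5188 in the library labelled Ctrl 1, with 4305 and 3637 for Ctrl 2 and Ctrl 3. The highest of these sums was 1.61 times the lowest. The 18 bone matrix genes summed to 12576, 9735 and 6514 FPKM in the OE libraries, against 9691 in the library labelled Ctrl 1, with 872 and 816 for Ctrl 2 and Ctrl 3, a span of 15.4 times. The summed matrix FPKM per summed ER gene FPKM was 2.84, 1.83 and 1.97 in the OE libraries, against 1.87 in the library labelled Ctrl 1, with 0.202 and 0.224 for Ctrl 2 and Ctrl 3. These matrix sums leave out type I collagen, so they are not the whole matrix load. Over the 6 libraries the median member ranged by 0.72 on the log2(FPKM + 1) scale from its lowest to its highest library, close to the 0.66 of all genes tested, while the median bone matrix gene ranged by 3.75.

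**Figure D1:**
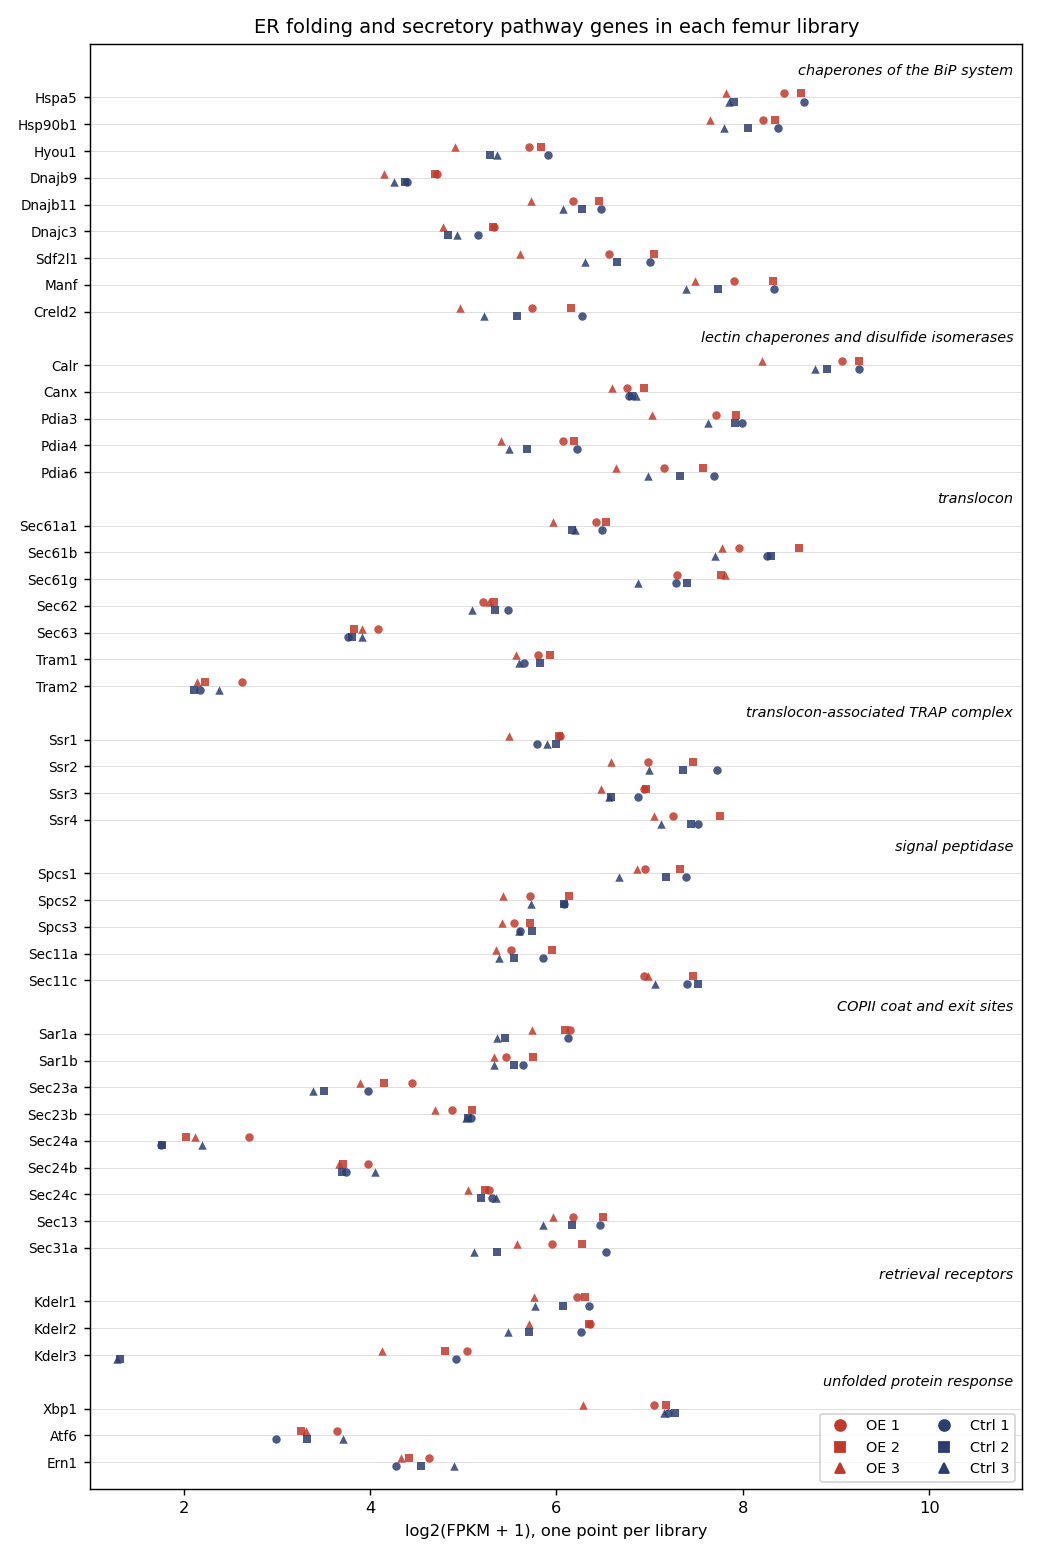
Expression of the 45 members with a row of their own as log2(FPKM + 1), 1 point per library, by role, with OE in red above Ctrl in blue. The library labelled Ctrl 1 is the blue circle, and Kdelr3 is the member with the widest range, 3.76, against at most 1.43 in the other members.

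Between OE and Ctrl 0 members passed the threshold. By limma, a linear model fitted across all genes, 0 of 45 members and 0% of the 12177 genes tested had an adjusted p under 0.05 with all 6 libraries, and limma without a trend also called 0. At an unadjusted p under 0.05 there was 1 member, Sec23a, which was higher in the OE libraries, against 8.2% of all genes tested (4.12% higher and 4.08% lower). The differences of the members ran from -0.37 to 2.15 on the log2(FPKM + 1) scale, 23 positive and 22 negative, with a median of 0.01, against a median of -0.04 over all genes tested. With trimmed-mean scaling 31 were positive, and with scaling that leaves out neutrophil, erythroid and muscle genes 33 were, while 9 were with the bone matrix level as a covariate, so the split of signs moved with the setting. In 43 of the 45 the difference was under 0.5 in size, as in 85.6% of all genes, and Kdelr3 and Sec23a were the other members. The OE and Ctrl values overlapped in all 45 members, while every OE library lay above every Ctrl library in 4.59% of all genes and below in 8.97%.

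A gene was said to follow the bone matrix list when its lowest libraries were Ctrl 2 and Ctrl 3, the lowest in the list, and at least 0.5 in log2(FPKM + 1) separated them from the other 4. The rule uses measured values, so its outcome is a description with no test. It took 17 of the 18 bone matrix genes and 6.96% of all genes tested, and 1 of the 45 members, Kdelr3. Members were flat in 37 cases, with at most 1 between the lowest and the highest library, as were 74.8% of all genes, and 0 ran against the list by the same gap, against 0.985% of all genes. The gap was 2.81 in Kdelr3, and just outside the threshold it was 0.39 in Sec23a, 0.29 in Sar1a and 0.21 in Sec31a. A gap of 0.25 took Kdelr3, Sar1a and Sec23a, 3 members, against 10.1% of all genes.

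Kdelr3 encodes a KDEL receptor, which returns escaped chaperones from the Golgi to the ER. It stood at 32.0, 26.9 and 16.5 FPKM in the OE libraries, against 29.2 in the library labelled Ctrl 1, with 1.48 and 1.43 for Ctrl 2 and Ctrl 3. The library labelled Ctrl 1 was thus the second highest, and the groups overlapped through it alone. The highest library was 22.3 times the lowest, against 55.3 times for the osteocalcin gene Bglap, which stood at 2711, 3254 and 1891 FPKM in the OE libraries, against 2552 in the library labelled Ctrl 1, with 91.8 and 58.8 for Ctrl 2 and Ctrl 3. Ibsp, which encodes bone sialoprotein, stood at 563, 336 and 336 FPKM in the OE libraries, against 334 in the library labelled Ctrl 1, with 77.8 and 80.9 for Ctrl 2 and Ctrl 3. Kdelr3 averaged 25.1 ± 7.91 FPKM over the OE libraries, against 10.7 ± 16.0 FPKM over the Ctrl libraries (SD, n = 3 each). Its log2 difference, 2.15 (SE 0.95), did not pass (limma adjusted p = 0.554). Without the library labelled Ctrl 1 it was 3.36 (SE 0.28) and passed (limma adjusted p = 0.00375). In that comparison Kdelr3 was 1 of 45 members called, where 4.9% of all genes tested were called, 4.25% higher and 0.649% lower. The rule on following bone sets the same libraries apart, so this call is no independent support for it.

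**Figure D2:**
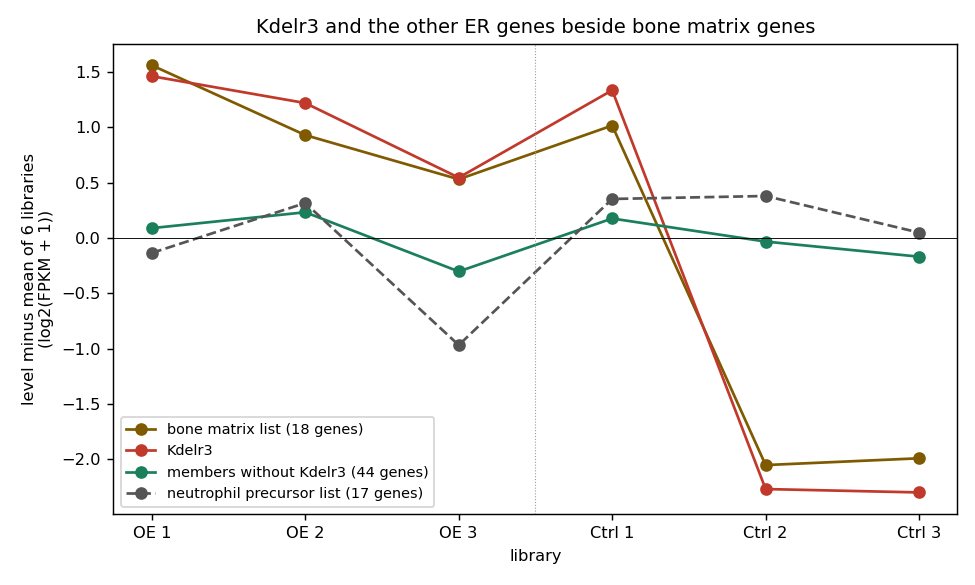
Level of each set in each library minus its own mean over the 6 libraries, in log2(FPKM + 1): the 18 bone matrix genes, Kdelr3, the 44 other members and 17 neutrophil precursor genes, with OE on the left and Ctrl on the right. Kdelr3 runs beside the bone matrix genes, while the level of the other members lies between 5.65 and 6.18 before centring.

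The likeness between Kdelr3 and the bone matrix genes was close in size as well as in order. After centring each on its mean over the 6 libraries, Kdelr3 lay 0.237 from the bone matrix level by root mean square distance in log2(FPKM + 1), and 0.312% of the genes tested lay nearer. Sec31a at 1.09 and Sec23a at 1.12 were the next members, and the median of all genes tested was 1.503. The members farthest from the bone matrix level were the unfolded protein response genes Ern1, Xbp1 and Atf6, at 1.59, 1.59 and 1.55. These distances describe the 6 libraries and rest on how far Ctrl 2 and Ctrl 3 lie from the others. The 1 added to FPKM narrows the range of Kdelr3, which stood at 1.48 and 1.43 FPKM in Ctrl 2 and Ctrl 3. With 0.1 added instead, its difference between OE and Ctrl was 2.55, against 2.15. With the bone matrix level as a covariate the difference of Kdelr3 between OE and Ctrl was -0.19 (limma adjusted p = 0.840). Kdelr3 was singled out for tracking this same level, so the fit had to shrink its difference and is no independent evidence.

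Genes of other tissues had the pattern of Kdelr3 too. By the rule above, 13 of 13 cartilage genes, 13 of 13 skeletal muscle genes and 9 of 11 fibroblast and periosteum genes followed the bone matrix list. So did 14 of 17 osteoblast and osteocyte genes, a count made in part of the same genes. That list shares Bglap, Ibsp, Alpl, Phospho1, Mepe, Dmp1 and Phex with the bone matrix list, and the fibroblast and periosteum list shares Postn with it. Of the remaining lists, 5 of 10 osteoclast, 5 of 13 B-cell precursor, 1 of 10 plasma cell and 1 of 7 adipocyte genes followed. In the neutrophil precursor, erythroid and endothelium lists 0 genes did. The cartilage level was 4.19, 4.64 and 3.60 in the OE libraries, against 4.27 in the library labelled Ctrl 1, with 1.09 and 1.18 for Ctrl 2 and Ctrl 3. The fibroblast and periosteum level was 4.15, 3.64 and 4.004 in the OE libraries, against 3.72 in the library labelled Ctrl 1, with 2.10 and 2.25 for Ctrl 2 and Ctrl 3. The muscle level was 6.96, 6.57 and 6.99 in the OE libraries, against 6.73 in the library labelled Ctrl 1, with 4.32 and 4.87 for Ctrl 2 and Ctrl 3. No marker of the cartilage, muscle and fibroblast lists was listed at 0 in any library, and the part of each cell type in the Kdelr3 values was not tested.

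The other KDEL receptors differed far less. Kdelr1 stood at 73.4, 78.3 and 53.1 FPKM in the OE libraries, against 80.8 in the library labelled Ctrl 1, with 66.0 and 53.5 for Ctrl 2 and Ctrl 3. Kdelr2 stood at 81.3, 80.4 and 51.0 FPKM in the OE libraries, against 75.6 in the library labelled Ctrl 1, with 51.2 and 43.7 for Ctrl 2 and Ctrl 3. OE 3 and Ctrl 3 were the lowest libraries for Kdelr1, while Kdelr2 was low in OE 3, Ctrl 2 and Ctrl 3 alike. The difference of Kdelr2 was 0.32 (SE 0.27, limma adjusted p = 0.666), and with 1 library left out it lay between 0.15 without Ctrl 3 and 0.54 without the library labelled Ctrl 1. Within a library the ratio of Kdelr3 to Kdelr1, both per length, does not depend on how that library was scaled. It was 0.436, 0.343 and 0.310 in the OE libraries, against 0.362 in the library labelled Ctrl 1, with 0.0225 and 0.0268 for Ctrl 2 and Ctrl 3.

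In this way 8 pairs of related genes were compared, with Kdelr3 set over Kdelr1 and again over Kdelr2. How widely each gene is expressed in other tissues was not measured here. With 3 against 3 libraries the exact two-sided permutation test allows no p below 0.1, so no pair could pass, and adjustment over the 8 pairs gave 0.4 or more for each. The log2 ratio of Kdelr3 to Kdelr1 averaged -1.48 ± 0.25 in OE and -4.05 ± 2.24 in Ctrl (SD, n = 3), an exact permutation p = 0.3. That of Kdelr3 to Kdelr2 averaged -1.52 ± 0.15 in OE and -3.80 ± 2.11 in Ctrl (SD, n = 3), an exact permutation p = 0.3. The large SD in Ctrl came from the library labelled Ctrl 1, which lay within the OE range for both ratios.

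**Figure D3:**
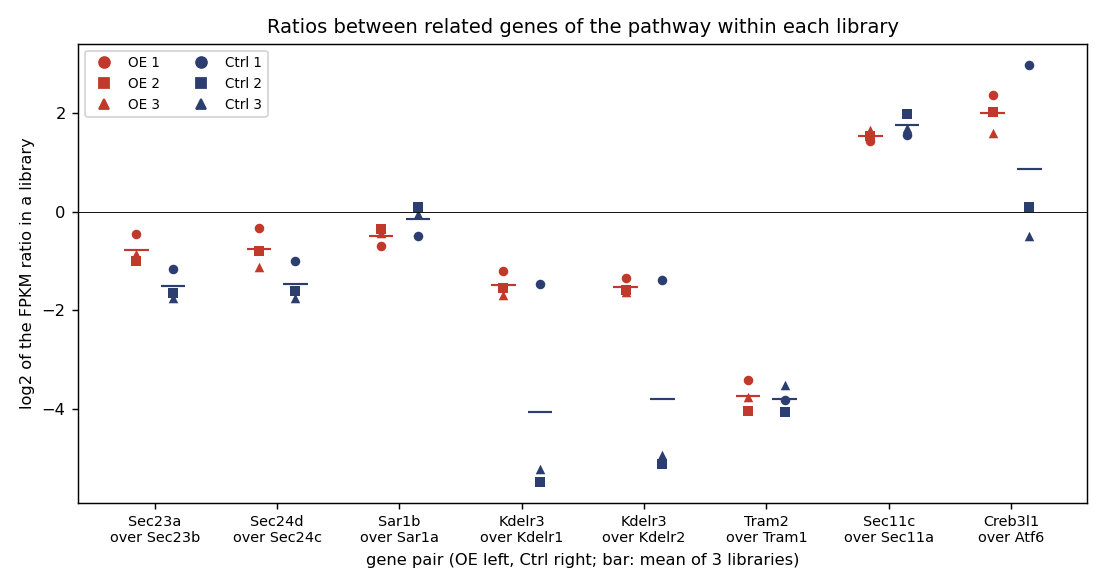
Log2 of the FPKM ratio within each library for 8 pairs of related genes, with OE to the left of Ctrl, 1 point per library and a bar at the mean of 3. The Sec23a to Sec23b ratios of OE lie above those of Ctrl, and the Kdelr3 ratios of Ctrl 2 and Ctrl 3 lie below the other 4 libraries.

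In the COPII coat the Sec23 forms differed in how they varied. Sec23a is an inner coat subunit whose mutation in humans disturbs skull and facial bone formation. It stood at 20.8, 16.7 and 13.8 FPKM in the OE libraries, against 14.8 in the library labelled Ctrl 1, with 10.3 and 9.45 for Ctrl 2 and Ctrl 3. Its groups overlapped because OE 3 lay below the library labelled Ctrl 1. The difference was 0.54 (SE 0.22, limma adjusted p = 0.554). Sec23b, its close relative, stood at 28.4, 33.1 and 24.996 FPKM in the OE libraries, against 33.0 in the library labelled Ctrl 1, with 32.3 and 31.5 for Ctrl 2 and Ctrl 3. The ratio of Sec23a to Sec23b was 0.733, 0.504 and 0.553 in the OE libraries, against 0.449 in the library labelled Ctrl 1, with 0.320 and 0.2996 for Ctrl 2 and Ctrl 3. Every OE library lay above every Ctrl library, and the log2 ratio averaged -0.76 ± 0.28 in OE and -1.51 ± 0.31 in Ctrl (SD, n = 3), an exact permutation p = 0.1, the smallest possible here.

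Other coat genes varied in part. Sar1a, a GTPase that starts coat assembly, stood at 69.8, 67.2 and 52.5 FPKM in the OE libraries, against 68.9 in the library labelled Ctrl 1, with 42.8 and 40.3 for Ctrl 2 and Ctrl 3. Its difference was 0.35 (SE 0.24, limma adjusted p = 0.605), and it was 0.58 without the library labelled Ctrl 1 and 0.20 without Ctrl 3. Sar1b, another form of the GTPase, stood at 43.0, 52.9 and 39.2 FPKM in the OE libraries, against 48.8 in the library labelled Ctrl 1, with 45.8 and 39.3 for Ctrl 2 and Ctrl 3. The ratio of Sar1b to Sar1a was 0.616, 0.787 and 0.747 in the OE libraries, against 0.708 in the library labelled Ctrl 1, with 1.07 and 0.976 for Ctrl 2 and Ctrl 3, an exact permutation p = 0.3 on its log2. The ratio thus exceeded the other libraries in Ctrl 2 and Ctrl 3, with the library labelled Ctrl 1 inside the OE range. Sec31a, which builds the outer coat cage, stood at 61.0, 76.7 and 46.6 FPKM in the OE libraries, against 91.3 in the library labelled Ctrl 1, with 40.2 and 33.7 for Ctrl 2 and Ctrl 3. It was highest in the library labelled Ctrl 1, and its difference was 0.27 (SE 0.39, limma adjusted p = 0.812). With 1 library left out the Sec31a difference lay between -0.011 without Ctrl 3 and 0.69 without the library labelled Ctrl 1. Its partner Sec13, also part of the nuclear pore, stayed between 56.9 and 89.5 FPKM and was lowest in Ctrl 3.

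Among the Sec24 proteins, which pick cargo, Sec24c and Sec24b were the steadiest. Sec24c stood at 37.7, 36.5 and 32.2 FPKM in the OE libraries, against 38.6 in the library labelled Ctrl 1, with 35.4 and 39.9 for Ctrl 2 and Ctrl 3, the narrowest range of the 45 members at 0.30 in log2. Sec24b stayed between 11.7 and 15.6 FPKM. Sec24a was low everywhere, at 5.52, 3.06 and 3.36 FPKM in the OE libraries, against 2.39 in the library labelled Ctrl 1, with 2.41 and 3.59 for Ctrl 2 and Ctrl 3, a difference of 0.37 (SE 0.23, limma adjusted p = 0.582), or 0.16 without OE 1. Sec24d, not a member but the form mutated in a brittle bone syndrome, stood at 29.99, 20.9 and 14.7 FPKM in the OE libraries, against 19.2 in the library labelled Ctrl 1, with 11.6 and 11.9 for Ctrl 2 and Ctrl 3. Its groups overlapped through OE 3 and the library labelled Ctrl 1, with a difference of 0.57 (SE 0.30, limma adjusted p = 0.561), or 0.32 without OE 1. The log2 ratio of Sec24d to Sec24c averaged -0.75 ± 0.40 in OE and -1.45 ± 0.40 in Ctrl (SD, n = 3), an exact permutation p = 0.2.

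A further comparison left out the library labelled Ctrl 1 and also OE 3, the library with the highest share of erythroid genes. This choice was made with earlier results of these data known. There 5 of 45 members were called higher by limma: Kdelr3, Kdelr2, Sec23a, Sar1a and Sec31a. In that comparison of OE 1 and OE 2 with Ctrl 2 and Ctrl 3, 11.4% of all genes tested were called, 7.92% higher and 3.48% lower. The differences of the members were 3.63 for Kdelr3 (limma adjusted p = 2.70e-04), 0.76 for Kdelr2 (limma adjusted p = 0.0372) and 0.85 for Sec23a (limma adjusted p = 0.0234). They were 0.71 for Sar1a (limma adjusted p = 0.0373) and 0.88 for Sec31a (limma adjusted p = 0.0328). OE 1 and OE 2 had bone matrix levels of 7.76 and 7.13, against 4.15 and 4.21 in Ctrl 2 and Ctrl 3. The comparison thus also sets libraries high in bone against libraries low in bone, and its p-values cannot separate that from the groups. The part of tissue composition in these calls was not tested. The rule on following bone also sets Ctrl 2 and Ctrl 3 apart, so these calls are no independent support for it.

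Mia3 encodes TANGO1, which loads procollagen into COPII carriers. Its identifier was split over 2 rows with the suffixes 2 and 3, which the sources used here do not explain. The row with suffix 2 stood at 52.5, 49.996 and 34.7 FPKM in the OE libraries, against 57.2 in the library labelled Ctrl 1, with 41.3 and 36.4 for Ctrl 2 and Ctrl 3. The row with suffix 3 stood at 17.8, 8.80 and 8.36 FPKM in the OE libraries, against 6.97 in the library labelled Ctrl 1, with 6.16 and 10.9 for Ctrl 2 and Ctrl 3. OE 1 was highest in the row with suffix 3 and the library labelled Ctrl 1 in that with suffix 2, and neither followed the bone matrix list.

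The chaperones of the BiP system were abundant and mostly lowest in OE 3. Hspa5, which encodes BiP, the central Hsp70 of the ER, stood at 346, 393 and 225 FPKM in the OE libraries, against 404 in the library labelled Ctrl 1, with 238 and 229 for Ctrl 2 and Ctrl 3. Its difference was 0.16 (SE 0.31, limma adjusted p = 0.865), and with 1 library left out it was lowest without OE 2, at -0.0071, and highest without the library labelled Ctrl 1, at 0.42. Hsp90b1, the ER Hsp90 known as Grp94, stood at 297, 325 and 199 FPKM in the OE libraries, against 331 in the library labelled Ctrl 1, with 266 and 221 for Ctrl 2 and Ctrl 3. Both were high in OE 1, OE 2 and the library labelled Ctrl 1. Sdf2l1, a partner of BiP and its J proteins, stood at 93.5, 131 and 47.8 FPKM in the OE libraries, against 127 in the library labelled Ctrl 1, with 99.7 and 78.4 for Ctrl 2 and Ctrl 3, a difference of -0.25 (SE 0.38, limma adjusted p = 0.819). The Sdf2l1 difference was 0.15 without OE 3 and -0.57 without OE 2. Dnajb9, a J protein that restrains the sensor Ire1, stood at 25.2, 24.96 and 16.8 FPKM in the OE libraries, against 20.05 in the library labelled Ctrl 1, with 19.8 and 18.2 for Ctrl 2 and Ctrl 3.

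Of the remaining genes of the BiP system Creld2 varied most, its highest library being 2.52 times its lowest. Creld2, a stress-induced ER protein with a disulfide isomerase activity, ranged from 30.3 FPKM in OE 3 to 76.2 in the library labelled Ctrl 1. Manf, a secreted stress-induced factor, ranged from 166 FPKM in Ctrl 3 to 322 in the library labelled Ctrl 1. The nucleotide exchange factor Hyou1 and the J proteins Dnajb11 and Dnajc3 were each lowest in OE 3, at 29.0, 51.9 and 26.5 FPKM. In all, 8 of the 9 BiP system genes were lowest in OE 3, as were 28.2% of all genes tested.

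Lectin chaperones and disulfide isomerases were lowest in OE 3 in 5 of 5 cases. Calr, calreticulin, which holds newly made glycoproteins, stood at 533, 606 and 295 FPKM in the OE libraries, against 606 in the library labelled Ctrl 1, with 476 and 436 for Ctrl 2 and Ctrl 3. Canx, its membrane-bound relative calnexin, stood at 107, 122 and 95.9 FPKM in the OE libraries, against 108 in the library labelled Ctrl 1, with 111 and 115 for Ctrl 2 and Ctrl 3. Pdia3, an isomerase that works with both, stood at 209, 242 and 129 FPKM in the OE libraries, against 253 in the library labelled Ctrl 1, with 240 and 196 for Ctrl 2 and Ctrl 3, a difference of -0.29 (SE 0.26, limma adjusted p = 0.691). The Pdia3 difference was -0.020 without OE 3 and -0.47 without OE 2. Pdia6 stood at 141, 189 and 98.9 FPKM in the OE libraries, against 206 in the library labelled Ctrl 1, with 160 and 125 for Ctrl 2 and Ctrl 3. Pdia4 ranged from 41.5 FPKM in OE 3 to 73.4 in the library labelled Ctrl 1.

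OE 3 was the lowest library in 28 of the 45 members, and 0 members were lowest in OE 2, as were 5.69% of all genes tested. The level of the neutrophil precursor list was 10.7, 11.2 and 9.90 in the OE libraries, against 11.2 in the library labelled Ctrl 1, with 11.2 and 10.9 for Ctrl 2 and Ctrl 3, and 17 of its 17 genes were lowest in OE 3. Mpo, which encodes a granule enzyme of neutrophils, stood at 2123, 2906 and 1311 FPKM in the OE libraries, against 3591 in the library labelled Ctrl 1, with 3941 and 3388 for Ctrl 2 and Ctrl 3. B-cell precursor genes were highest in OE 3 in 13 of 13 cases, with Igll1 at 5.18, 11.5 and 91.1 FPKM in the OE libraries, against 6.37 in the library labelled Ctrl 1, with 1.59 and 1.24 for Ctrl 2 and Ctrl 3. The part of these cell types in the chaperone values was not tested. The signs of the members moved with single libraries. Without OE 3, 35 of the 45 differences were positive (median 0.17), without OE 2 there were 13 (median -0.11) and without Ctrl 3 there were 16 (median -0.08).

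All 7 translocon genes were flat, with a median range of 0.52 in log2(FPKM + 1). Sec61a1, the pore-forming subunit, stood at 84.97, 91.8 and 61.2 FPKM in the OE libraries, against 89.1 in the library labelled Ctrl 1, with 70.8 and 72.5 for Ctrl 2 and Ctrl 3. Sec61g, a small channel subunit, stood at 156, 217 and 223 FPKM in the OE libraries, against 155 in the library labelled Ctrl 1, with 168 and 116 for Ctrl 2 and Ctrl 3, a difference of 0.44 (SE 0.22, limma adjusted p = 0.560), or 0.28 without Ctrl 3. OE 3 was the highest library for Sec61g and for 0 of the other 44 members, while it was highest in 16.4% of all genes tested. Sec61b ranged from 207 to 387 FPKM, Sec62 from 33.2 to 43.7. Sec63, which links the channel to BiP, stood at 16.0, 13.2 and 14.1 FPKM in the OE libraries, against 12.6 in the library labelled Ctrl 1, with 13.0 and 14.0 for Ctrl 2 and Ctrl 3.

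Tram2, which has been linked to type I collagen synthesis, did not follow the bone matrix genes. It stood at 5.18, 3.67 and 3.43 FPKM in the OE libraries, against 3.51 in the library labelled Ctrl 1, with 3.31 and 4.19 for Ctrl 2 and Ctrl 3, so all libraries but OE 1 were close together. Tram1, the general translocating chain protein, stood at 54.7, 60.1 and 46.5 FPKM in the OE libraries, against 49.2 in the library labelled Ctrl 1, with 55.6 and 47.4 for Ctrl 2 and Ctrl 3. The log2 ratio of Tram2 to Tram1 averaged -3.73 ± 0.32 in OE and -3.79 ± 0.28 in Ctrl (SD, n = 3), an exact permutation p = 0.7.

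In the TRAP complex, which helps nascent chains into the channel, Ssr2 varied most. It stood at 126, 176 and 95.2 FPKM in the OE libraries, against 210 in the library labelled Ctrl 1, with 163 and 127 for Ctrl 2 and Ctrl 3, a difference of -0.34 (SE 0.28, limma adjusted p = 0.660). With 1 library left out the Ssr2 difference lay between -0.57 without OE 2 and -0.13 without OE 3. Ssr3 stood at 121, 124 and 88.2 FPKM in the OE libraries, against 116 in the library labelled Ctrl 1, with 94.9 and 93.4 for Ctrl 2 and Ctrl 3. Ssr4 stood at 151, 214 and 131 FPKM in the OE libraries, against 182 in the library labelled Ctrl 1, with 174 and 138 for Ctrl 2 and Ctrl 3. Ssr1 ranged from 43.9 to 64.7 FPKM, and all 4 genes were lowest in OE 3.

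The signal peptidase genes were flat in all 5 cases. Spcs2, an accessory subunit, stood at 51.4, 69.4 and 42.1 FPKM in the OE libraries, against 66.9 in the library labelled Ctrl 1, with 66.6 and 52.0 for Ctrl 2 and Ctrl 3, a difference of -0.20 (SE 0.22, limma adjusted p = 0.732). The Spcs2 difference was -0.040 without OE 3 and -0.39 without OE 2. Spcs1 ranged from 101 to 166 FPKM and Spcs3 from 41.7 to 52.5. Sec11c, a catalytic subunit, stood at 122, 176 and 126 FPKM in the OE libraries, against 168 in the library labelled Ctrl 1, with 182 and 132 for Ctrl 2 and Ctrl 3, so its highest library was one of the lowest in bone. Sec11a, the other catalytic subunit, stood at 44.7, 60.8 and 39.9 FPKM in the OE libraries, against 56.8 in the library labelled Ctrl 1, with 45.6 and 40.7 for Ctrl 2 and Ctrl 3. The ratio of Sec11c to Sec11a was 2.72, 2.90 and 3.15 in the OE libraries, against 2.96 in the library labelled Ctrl 1, with 3.99 and 3.24 for Ctrl 2 and Ctrl 3, an exact permutation p = 0.2 on its log2.

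Among the regulators of the unfolded protein response, Xbp1 was low in OE 3 and close to level elsewhere. Xbp1, the transcription factor whose mRNA Ire1 splices, stood at 131, 144 and 76.7 FPKM in the OE libraries, against 145 in the library labelled Ctrl 1, with 153 and 141 for Ctrl 2 and Ctrl 3. Its difference was -0.37 (SE 0.25, limma adjusted p = 0.601), or -0.095 without OE 3, and FPKM per gene does not show the splicing. Ern1, which encodes Ire1 itself, stood at 23.8, 20.4 and 19.1 FPKM in the OE libraries, against 18.4 in the library labelled Ctrl 1, with 22.3 and 28.8 for Ctrl 2 and Ctrl 3. Atf6, a membrane-bound sensor cut to an active factor in the Golgi, stood at 11.5, 8.58 and 8.97 FPKM in the OE libraries, against 6.97 in the library labelled Ctrl 1, with 9.03 and 12.1 for Ctrl 2 and Ctrl 3. Ern1 and Atf6 were highest in Ctrl 3 and lowest in the library labelled Ctrl 1.

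The wider pathway, 111 genes in 8 lists tested beside the members, was also mostly level. By limma 0 were called between OE and Ctrl with all 6 libraries, and the median difference was -0.05. At an unadjusted p under 0.05, 1 was higher and 4 were lower, against 4.12% higher and 4.08% lower of all genes tested. By the rule above 95 were flat, which is 85.6%, against 74.8% of all genes tested. The bone matrix list was followed by 4, which is 3.60%, against 6.96% of all genes tested. These were Copz2, Ppic, Creb3l1 and Creb3l3. Copz2, a form of the zeta subunit of the COPI coat, stood at 56.9, 49.0 and 31.7 FPKM in the OE libraries, against 58.6 in the library labelled Ctrl 1, with 7.17 and 5.45 for Ctrl 2 and Ctrl 3, a difference of 1.64 (SE 0.81, limma adjusted p = 0.559). Its relative Copz1, chosen after its values were seen, stayed between 84.3 and 127 FPKM. Ppic, a cyclophilin of the secretory pathway, stood at 99.3, 74.6 and 55.6 FPKM in the OE libraries, against 72.7 in the library labelled Ctrl 1, with 17.3 and 14.3 for Ctrl 2 and Ctrl 3, a difference of 1.46 (SE 0.59, limma adjusted p = 0.554). Ppib, the cyclophilin of the collagen hydroxylation complex and likewise chosen afterwards, ranged from 90.5 to 153 FPKM.

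Creb3l1 encodes OASIS, an ER-anchored transcription factor that in mouse osteoblasts drives type I collagen transcription. It stood at 59.4, 35.0 and 27.1 FPKM in the OE libraries, against 55.1 in the library labelled Ctrl 1, with 9.72 and 8.67 for Ctrl 2 and Ctrl 3, a difference of 1.13 (SE 0.69, limma adjusted p = 0.579). The library labelled Ctrl 1 was the second highest. The ratio of Creb3l1 to Atf6 was 5.17, 4.07 and 3.02 in the OE libraries, against 7.90 in the library labelled Ctrl 1, with 1.08 and 0.715 for Ctrl 2 and Ctrl 3, an exact permutation p = 0.4 on its log2. Without the library labelled Ctrl 1 the differences were 2.65 for Copz2, 2.17 for Ppic and 1.95 for Creb3l1, given as a description because the rule that picked these genes already set Ctrl 2 and Ctrl 3 below the other libraries. Without Ctrl 3 they were 1.05 for Copz2 and 0.68 for Creb3l1.

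In the lists of ER-associated degradation and of other stress sensors and transcription factors, 0 genes passed between OE and Ctrl. Of the 15 degradation genes tested 4 differences were positive and 11 negative, and of the 13 stress genes 6 were positive and 7 negative. The degradation and stress genes with the largest negative differences were Derl3 and Trib3. Derl3, part of the channel that returns misfolded proteins to the cytosol, stood at 2.29, 2.35 and 2.10 FPKM in the OE libraries, against 2.47 in the library labelled Ctrl 1, with 5.51 and 4.94 for Ctrl 2 and Ctrl 3. Trib3, a pseudokinase induced by amino acid and ER stress, stood at 1.08, 0.899 and 1.21 FPKM in the OE libraries, against 1.53 in the library labelled Ctrl 1, with 3.25 and 3.91 for Ctrl 2 and Ctrl 3. Every OE library lay below every Ctrl library in both, as in 7 of the 111 pathway genes and 8.97% of all genes, and the library labelled Ctrl 1 was nearer to OE. The differences were -0.66 for Derl3 (SE 0.25, limma adjusted p = 0.554) and -0.87 for Trib3 (SE 0.27, limma adjusted p = 0.554). Derl3 is also on the plasma cell list, of which 10 genes were tested, 8 with a positive and 2 with a negative difference (median 0.45). The 2 negative ones were Derl3 and Jchain, while 5 of the 10 genes were highest in OE 3. Jchain, the joining chain of secreted antibodies, stood at 81.5, 73.4 and 76.2 FPKM in the OE libraries, against 78.3 in the library labelled Ctrl 1, with 384 and 208 for Ctrl 2 and Ctrl 3. The summed plasma cell list was 174, 183 and 279 FPKM in the OE libraries, against 172 in the library labelled Ctrl 1, with 476 and 279 for Ctrl 2 and Ctrl 3. The part of plasma cells in the Derl3 values was not tested. Without the library labelled Ctrl 1 the differences were -0.94 for Derl3 and -1.15 for Trib3, again as a description.

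Of the other genes with the largest differences in their lists, most overlapped between the groups. Arf4, a GTPase of the Golgi and the COPI coat, stood at 91.6, 92.0 and 66.1 FPKM in the OE libraries, against 82.6 in the library labelled Ctrl 1, with 47.5 and 37.9 for Ctrl 2 and Ctrl 3. Tusc3, a subunit of the complex that attaches sugar chains, stood at 23.98, 21.9 and 18.2 FPKM in the OE libraries, against 21.9 in the library labelled Ctrl 1, with 12.9 and 11.3 for Ctrl 2 and Ctrl 3. Both were lowest in Ctrl 2 and Ctrl 3. Ddost, another subunit of that complex, stood at 112, 135 and 81.5 FPKM in the OE libraries, against 148 in the library labelled Ctrl 1, with 142 and 122 for Ctrl 2 and Ctrl 3. Selenom, an ER selenoprotein, stood at 60.9, 62.9 and 40.8 FPKM in the OE libraries, against 64.0 in the library labelled Ctrl 1, with 37.4 and 23.7 for Ctrl 2 and Ctrl 3. Ddost was lowest in OE 3 and Selenom in Ctrl 3. Sec16b, which marks exit sites, stood at 5.17, 3.38 and 2.73 FPKM in the OE libraries, against 3.22 in the library labelled Ctrl 1, with 1.72 and 1.92 for Ctrl 2 and Ctrl 3. Lman1, a cargo receptor also known as ERGIC-53, stood at 53.5, 39.1 and 30.7 FPKM in the OE libraries, against 36.3 in the library labelled Ctrl 1, with 27.8 and 30.3 for Ctrl 2 and Ctrl 3. In both, OE 1 was the highest library. Bcap29, a membrane protein of the cargo receptor list, stood at 10.6, 13.8 and 12.5 FPKM in the OE libraries, against 11.2 in the library labelled Ctrl 1, with 21.3 and 16.7 for Ctrl 2 and Ctrl 3. Edem2, which trims mannose from misfolded glycoproteins, stood at 29.4, 34.6 and 22.5 FPKM in the OE libraries, against 38.1 in the library labelled Ctrl 1, with 45.2 and 37.8 for Ctrl 2 and Ctrl 3. Every OE library lay below every Ctrl library for Edem2, while Bcap29 overlapped. Srp9, a part of the signal recognition particle, stood at 65.1, 91.99 and 62.3 FPKM in the OE libraries, against 92.7 in the library labelled Ctrl 1, with 91.5 and 67.9 for Ctrl 2 and Ctrl 3. Srprb, which anchors the receptor of that particle, stood at 60.6, 72.6 and 94.6 FPKM in the OE libraries, against 86.5 in the library labelled Ctrl 1, with 92.4 and 78.1 for Ctrl 2 and Ctrl 3. Srp9 was lowest in OE 3 and Srprb highest there.

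**Figure D4:**
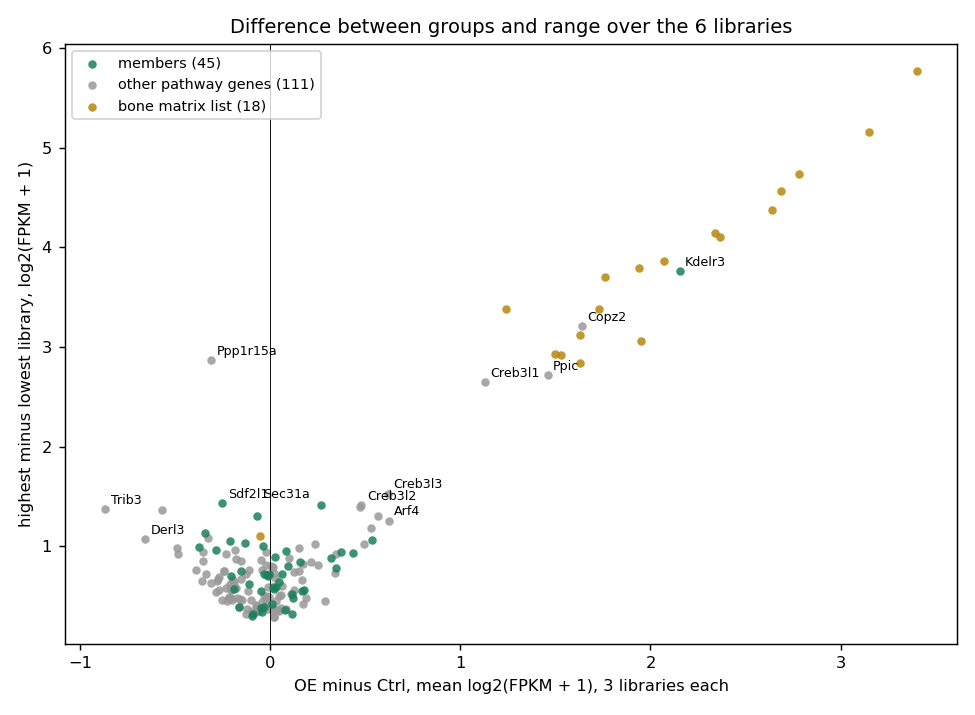
Difference between OE and Ctrl in mean log2(FPKM + 1), positive where OE is higher, against the range from the lowest to the highest of the 6 libraries, 1 point per gene for the 45 members, 111 other pathway genes and 18 bone matrix genes. Kdelr3, Copz2, Ppic and Creb3l1 lie among the bone matrix genes, while 44 members have a range of at most 1.43.

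Set beside the promoter motifs, the 7 members with an ERSE had differences from -0.21 to 0.17, and 0 of them followed the bone matrix list. Among the other pathway genes an ERSE was found for Derl3, Syvn1 and Ero1b, which the expression rows name Ero1lb. Their differences were -0.66, 0.06 and -0.31. The ERSE-II was found for the pathway genes Herpud1 and Krtcap2, at -0.09 and -0.05, and for the member Dnajb11, at -0.15. Derl3 ran against the bone matrix list. The 2 members with a UPRE core, Kdelr3 and Sec23a, were those with a difference of 0.5 or more. Neither difference passed with all 6 libraries (limma adjusted p = 0.554 for each). Only 37 members had a window, and the motifs were chosen after the values were seen. A link between motif and difference was not tested. Among the other pathway genes the UPRE core was found in 11, with Sec24d and Sec16b among them, while the remaining 9, such as Arf1 and Vcp, were flat, with differences from -0.21 to 0.06. Copz2, which followed the bone matrix genes, had a window with none of the 3 motifs. Ppic and Creb3l1, which also followed the list, had no promoter window and were not searched. Among the members and pathway genes that were searched, Kdelr3 was the 1 gene with a UPRE core that followed the bone matrix list.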

How the data were processed

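RNA of 3 OE and 3 Ctrl femur libraries was analysed, with groups and replicate numbers taken from the sample titles. Per the file headers the deposited values are FPKM per gene. TopHat2, Cufflinks and DESeq with mm10 are named in the submitters' processing notes, while the sources used here do not state what each did, with which version, or how strand and shared reads were handled. FPKM is scaled to each library, so a few abundant genes lower all others. The files hold 21606 rows with an Ensembl identifier, of which 21172 matched a symbol in GENCODE M21 (GRCm38), and 76 rows carry a suffixed identifier. Srp54a, which has near-identical copies, was listed at 0 in 5 libraries and not tested.

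Rows reaching 1 FPKM in 3 or more libraries, 12177 in all, entered a limma model of log2(FPKM + 1), using limma 3.58.1, R 4.3.3 and eBayes with trend. Benjamini-Hochberg adjustment covered every row tested, and the threshold was 0.05. Differences are OE minus Ctrl in log2(FPKM + 1), where the pseudocount makes changes of low genes look smaller. Pair ratios were compared by an exact two-sided permutation test over libraries. Simulated data served to test the limma script. Tables and plots used Python 3.11.15, numpy 2.4.6, pandas 2.3.3 and matplotlib 3.10.9. The members, gene lists, pairs and alternatives were chosen with earlier results of these data known, and the motifs and promoters after the values were seen. Values of every library are given, by rule, for the related pairs, for Hspa5, Hsp90b1, Calr, Canx, Xbp1, Atf6, Ern1 and Mia3, for the 2 largest and the smallest absolute differences in each role group, for the 2 largest in each wider pathway list, and for the members nearest to and farthest from the bone matrix level. Other genes with values were chosen after these were seen.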

Additional observations from a re-analysis of the deposited data

How the results depend on the processing

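The number of genes called by limma was 0 in all settings run but 2: it ran from 0 to 597 when single libraries were left out, with 597 without the library labelled Ctrl 1, and was 1388 without that library and OE 3. The number of members called ran from 0 to 1 on single omissions and was 5 without the library labelled Ctrl 1 and OE 3. The median difference of the members ran from -0.19 to 0.27 over the settings, and the number of positive differences from 9 to 37 of 45. The members following bone matrix genes numbered 3 with a gap of 0.25 and 1 in the 4 other alternatives. With the bone matrix level as a covariate the difference turned to -0.19 in Kdelr3, -0.18 in Kdelr2, -0.15 in Sar1a, -0.56 in Sec31a, -0.41 in Hspa5, -0.55 in Creb3l1 and -0.34 in Copz2. It turned in Hspa5 to -0.0071 without OE 2, in Sec31a to -0.011 without Ctrl 3 and in Sdf2l1 to 0.15 without OE 3, and over all single omissions it ran from -0.0071 to 0.42 in Hspa5, -0.011 to 0.69 in Sec31a and -0.57 to 0.15 in Sdf2l1. Without the library labelled Ctrl 1 and OE 3 it turned to 0.0502 in Ssr2, 0.0531 in Pdia3, 0.32 in Sdf2l1 and 0.0212 in Spcs2. The cause of these changes was not tested. Kdelr3, Creb3l1 and Copz2 follow by rule the bone matrix level that served as covariate, so that fit had to shrink their differences. Of all 45 members, 16 changed sign with the bone matrix covariate, 16 without the library labelled Ctrl 1 and OE 3, 5 to 12 with 1 library left out, 8 with trimmed-mean scaling and 10 with scaling without neutrophil, erythroid and muscle genes.

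Leaving out single libraries, the difference between OE and Ctrl in the log2 ratio of Tram2 to Tram1 ran from -0.10 to 0.21, being -0.10 without OE 1 and -0.08 without Ctrl 2, and the other 7 pairs kept their direction. Deviations of same-numbered libraries from their group means correlated at 0.44, 0.09 and 0.31. OE 2 correlated at 0.14 with the library labelled Ctrl 1, and OE 3 at 0.42 with Ctrl 2. These correlations cannot settle whether the numbers pair the samples, because the deviations also carry differences in tissue between libraries. With the replicate number as a block, limma called 0 genes and 0 members (smallest adjusted p = 0.191 over all genes). The trimmed mean was computed from the FPKM values without weights.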
